A study of Mus musculus with 2 samples.

Results

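The genes described here are the mouse Fc gamma receptor genes Fcgr1, Fcgr2b, Fcgr3 and Fcgr4, the signalling adaptor genes Fcer1g and Tyrobp, and the Fc receptor-like gene Fcrls. They were taken by symbol, and all 7 of them were found in both libraries among 32245 gene symbols. The data are droplet single-cell RNA-seq of CD45+ cells enriched by magnetic sorting from tumours of MC38-OVA, colon carcinoma cells of the mouse into which the model antigen ovalbumin was introduced. The Sitagliptin library came from tumour-bearing wild-type mice on a diet with sitagliptin, an inhibitor of the peptidase DPP4, and the Control library from tumour-bearing wild-type mice on the control diet. The labels do not give the age of the mice or how many each library holds, and with 1 library per diet there was no replicate check and no test between diets.

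Fc gamma receptors bind the constant part of IgG antibodies and let myeloid and NK cells respond to coated targets by phagocytosis, killing and cytokine release. The activating receptors encoded by Fcgr1, Fcgr3 and Fcgr4 signal through the Fc receptor gamma chain encoded by Fcer1g, which carries an immunoreceptor tyrosine-based activation motif (ITAM), whereas the receptor encoded by Fcgr2b carries an inhibitory motif of its own. Tyrobp encodes DAP12, a second ITAM adaptor that serves other receptors of myeloid and NK cells. Fcrls encodes an Fc receptor-like protein with a scavenger receptor domain and is known as a marker of mouse microglia.

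The Sitagliptin library held 9766 barcodes and 76788699 UMIs, and the Control library 8694 barcodes and 64139749 UMIs. Median UMIs per barcode were 5158.5 in the Sitagliptin library and 5074 in the Control library, and 132 cell barcodes were present in both. Cells were called one by one from UMIs of marker lists that held none of the 7 genes. This gave 3150 macrophages in the Sitagliptin library and 2610 in the Control library, 937 and 623 monocytes, 19 and 27 neutrophils, 45 and 30 cDC2, 26 and 12 cDC1, 90 and 71 mature migratory dendritic cells, 19 and 8 plasmacytoid dendritic cells, 154 and 99 NK cells, and 400 and 224 T cells. Macrophages carried a median of 8076 UMIs in the Sitagliptin library and 6455 in the Control library, a difference in depth that accompanied each macrophage comparison below. Barcodes with markers of several classes (752 and 879) and clusters with low UMI counts (2020 and 1575 barcodes) stood outside the classes. The low-UMI barcodes formed 2 clusters, each mainly of 1 library. One held 1703 Sitagliptin and 161 Control barcodes, and its counterpart held 317 Sitagliptin and 1414 Control barcodes. Levels are given as UMIs per 1000000 UMIs of the class in that library (CPM), and ratios are Sitagliptin over Control with exact 95% intervals that cover counting error only.

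Fcgr2b, Fcgr4 and Fcgr3 are neighbours on chromosome 1 in the RefSeq annotation of GRCm38.p6, with 0 protein-coding genes between them, and 7 protein-coding genes separate Fcgr3 from Fcer1g. RefSeq promoter sequence was matched for 6 of the 7 genes, all but Tyrobp. The 150 bases before the start of the 3 activating receptors, the inhibitory receptor and Fcrls are shown because these genes did not all peak in the same macrophages, as described below. Capitals mark GAGGAA or its reverse complement TTCCTC, 1 form of the sites that ETS factors such as PU.1 recognise, searched on both strands. Other and shorter forms of such sites were not searched and are not marked.
Fcgr1 (GRCm38.p6, chr3:96293970-96294119, minus strand): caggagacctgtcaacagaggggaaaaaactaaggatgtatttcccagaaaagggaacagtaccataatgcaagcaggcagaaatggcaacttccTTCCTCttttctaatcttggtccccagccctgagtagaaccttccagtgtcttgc
Fcgr3 (GRCm38.p6, chr1:171059404-171059553, minus strand): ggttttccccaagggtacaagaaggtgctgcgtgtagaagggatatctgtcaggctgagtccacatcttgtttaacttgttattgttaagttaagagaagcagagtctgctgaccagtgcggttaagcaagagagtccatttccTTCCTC
Fcgr4 (GRCm38.p6, chr1:171018776-171018925, plus strand): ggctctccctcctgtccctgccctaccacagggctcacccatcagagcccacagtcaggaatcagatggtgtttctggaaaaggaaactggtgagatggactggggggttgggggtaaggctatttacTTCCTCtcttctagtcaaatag
Fcgr2b (GRCm38.p6, chr1:170976072-170976221, minus strand): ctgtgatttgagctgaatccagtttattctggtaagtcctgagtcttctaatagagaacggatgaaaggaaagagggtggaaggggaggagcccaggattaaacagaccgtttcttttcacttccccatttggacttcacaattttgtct
Fcrls (GRCm38.p6, chr3:87263525-87263674, minus strand): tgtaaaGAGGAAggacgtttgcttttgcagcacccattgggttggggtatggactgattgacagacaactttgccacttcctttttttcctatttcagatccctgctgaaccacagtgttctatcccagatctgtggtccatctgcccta
These letters occurred in 4 of the 6 matched promoters, and in 4754 of 32851 RefSeq promoters of the same length (14.5%). They began 6 bases before the start in Fcgr3, for which the first of 2 listed starts was used, 22 bases before it in Fcgr4, 55 bases before it in Fcgr1 and 144 bases before it in Fcrls. The windows of Fcgr2b and Fcer1g held no match to these 6 letters, which does not cover other forms of ETS sites. The match describes the letters and says nothing of binding in these cells.

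Of the receptor and adaptor UMIs in kept barcodes, most lay in macrophages. Macrophages held 63.9% of Fcgr2b UMIs in the Sitagliptin library and 61.7% in the Control library, 62.9% and 61.8% of Fcgr3 UMIs, and 72.5% and 73.1% of Fcrls UMIs. Monocytes held 10.8% of Fcgr1 UMIs in the Sitagliptin library and 7.54% in the Control library, but 0.433% and 0.167% of Fcrls UMIs. Barcodes of several classes held another 13.2% of Fcgr3 UMIs in the Sitagliptin library and 17.3% in the Control library.

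**Figure D1:**
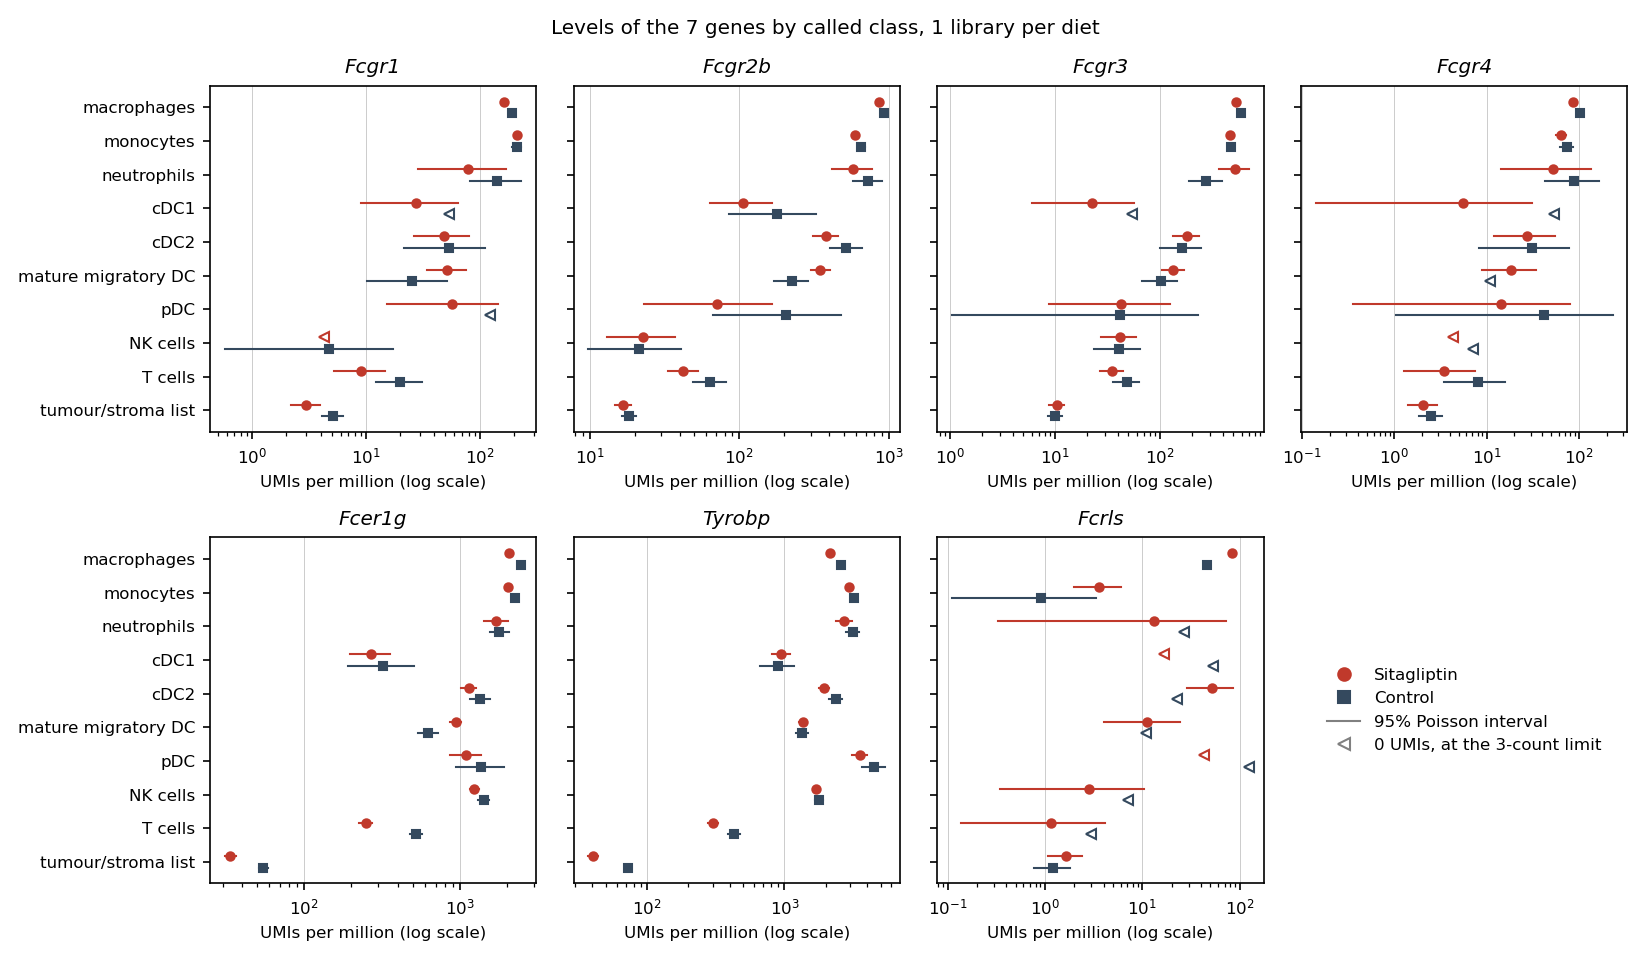
Levels of the 7 genes in CPM (log axis) for each called class, with Sitagliptin above Control and 95% Poisson intervals; open triangles mark classes with 0 UMIs, drawn at the limit that 3 counts would give. Macrophages, monocytes and neutrophils carry the receptors, NK cells carry Fcer1g and Tyrobp with little of the receptors, and Fcrls is low outside macrophages except for 51.8 CPM in Sitagliptin cDC2.

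In macrophages the classical receptors and both adaptors stood at lower levels in the Sitagliptin library, and Fcrls stood at a higher level. Fcgr1, the high-affinity IgG receptor, had 163.1 CPM in Sitagliptin macrophages and 190.3 CPM in Control macrophages, a ratio of 0.857 (0.820 to 0.895). Fcgr3, an activating receptor of low affinity, had 531.7 CPM in Sitagliptin and 590.0 CPM in Control macrophages (0.901, 0.879 to 0.924). Fcgr4, the activating receptor for IgG2a and IgG2b, had 85.2 CPM in Sitagliptin and 103.4 CPM in Control macrophages (0.824, 0.776 to 0.875), the lowest ratio among the 7 genes. The intervals of all these ratios lay below 1.

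The inhibitory receptor gene Fcgr2b stood at 864.8 CPM in Sitagliptin and 931.2 CPM in Control macrophages, a ratio of 0.929 (0.911 to 0.947), the nearest to 1 of the 7. Fcer1g had 2080 CPM in Sitagliptin and 2461 CPM in Control macrophages (0.845, 0.835 to 0.856). Tyrobp had 2157 CPM in Sitagliptin and 2566 CPM in Control macrophages (0.841, 0.831 to 0.851). Both adaptors thus differed by a similar factor, about as far as Fcgr1 and further than Fcgr2b and Fcgr3.

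Fcrls had 84.0 CPM in Sitagliptin macrophages, from 2346 UMIs, and 46.4 CPM in Control macrophages, from 874 UMIs. The ratio was 1.81 (1.68 to 1.96). With each barcode thinned to 2000 UMIs, a Fcrls UMI was found in 11.6% of Sitagliptin macrophages (10.5 to 12.8) and 6.86% of Control macrophages, and unthinned in 26.6% and 16.1%. Among barcodes called by epithelial and stromal tumour markers, which should lack the gene, the thinned share was 0.140% in Sitagliptin and 0.173% in Control, at median depths of 21227.5 and 15864 UMIs.

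The share of macrophages with a UMI of each gene, thinned to 2000 UMIs, showed the same directions. Fcgr4 was found in 13.1% of Sitagliptin and 17.5% of Control macrophages, Fcgr1 in 27.6% and 29.1%, Fcgr3 in 61.5% and 63.8%, and Fcgr2b in 73.5% and 77.2%. Fcer1g was found in 94.9% of Sitagliptin and 96.5% of Control macrophages and Tyrobp in 95.6% and 98.0%, so nearly every macrophage held both adaptors. In tumour-marker barcodes, with the same limit on macrophage markers, the share was 0.7003% in Sitagliptin and 0.433% in Control for Fcgr4. For Tyrobp it was 6.16% and 9.36%.

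Barcodes outside the classes gave a mixed picture. Many barcodes of the low-UMI clusters met the macrophage call. With these clusters included, macrophages numbered 4975 in Sitagliptin and 3967 in Control, against 3150 and 2610 without them. The macrophage ratio was then 0.890 for Fcgr1, 0.951 for Fcgr2b and 0.920 for Fcgr3. In the low-UMI clusters alone Fcgr1 was at 93.6 CPM in Sitagliptin and 75.2 CPM in Control (1.24, 1.08 to 1.43). Fcgr2b was at 493.4 and 414.1 CPM (1.19, 1.12 to 1.27), and Fcgr3 had a ratio of 1.14 (1.05 to 1.23). These ratios, over all barcodes of the clusters, lay on the opposite side of 1 from the macrophages called above. The leucocyte gene Ptprc was also higher there, at 630.6 CPM in Sitagliptin and 516.0 CPM in Control (1.22, 1.16 to 1.29). In the same clusters Fcgr4 (0.958), Fcer1g (0.958) and Tyrobp (0.974) lay below 1. Fcrls was higher in Sitagliptin there too, at 41.8 CPM against 13.1 CPM in Control, and in barcodes of several classes, at 48.8 CPM against 23.3 CPM. Since each low-UMI cluster was mainly of 1 library, diet and cluster cannot be told apart in them.

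Over all 7 genes, 1 was at least 25% higher in Sitagliptin macrophages and 0 were at least 20% lower (ratio 0.8 or less), against 9.82% and 12.6% of 13013 genes measured by 20 or more UMIs. The median log2 ratio of the 7 genes was -0.22, and that of all measured genes was -0.06. None of the 6 lower ratios was as low as 0.8, and Fcrls alone passed the fold on the higher side. C1qa, a macrophage marker, stood at 1458 CPM in Sitagliptin and 1845 CPM in Control macrophages (ratio 0.790), and the 10 macrophage markers, which also served to call the cells, summed to 11357 CPM and 12809 CPM with none at 0. The leucocyte gene Ptprc stood at 611.5 CPM in Sitagliptin and 614.5 CPM in Control macrophages (0.995, 0.972 to 1.02). The part of these marker levels and of depth in the ratios was not tested.

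**Figure D2:**
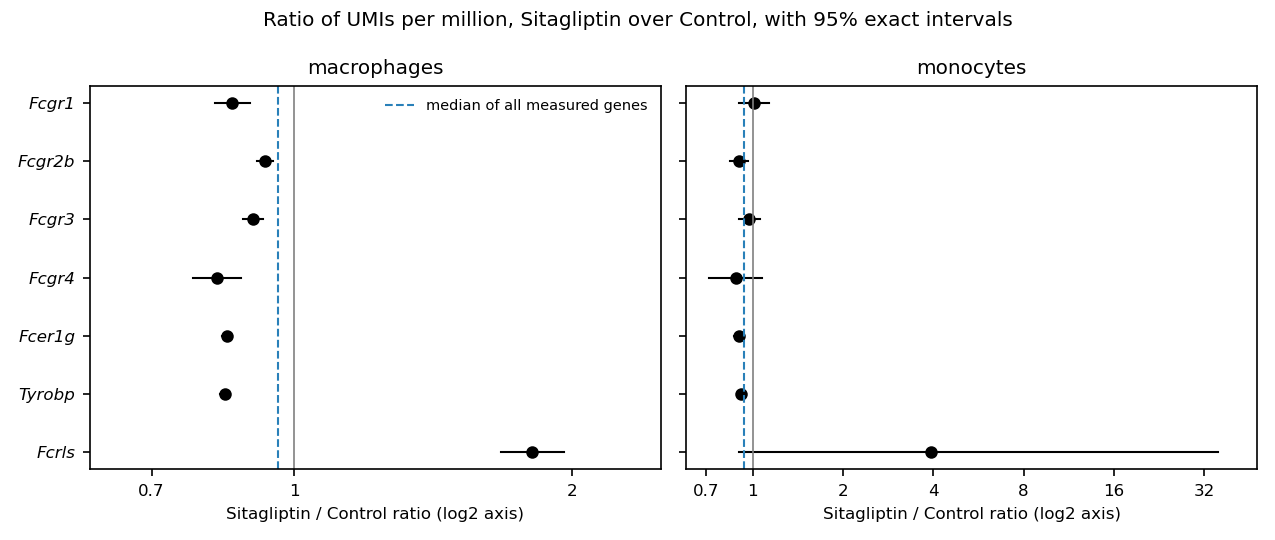
Ratio of CPM, Sitagliptin over Control, for the 7 genes in macrophages (left) and monocytes (right) on log2 axes, with exact 95% intervals; the dashed line is the median of all measured genes and the grey line is 1. In macrophages 6 genes lie left of both lines and Fcrls lies at 1.81, and in monocytes the intervals of Fcgr1, Fcgr3, Fcgr4 and Fcrls include 1.

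In monocytes the ratios of the 3 activating receptors lay nearer to 1 than in macrophages, and that of Fcgr2b lay further from it; these differences between classes were not tested. Fcgr1 had 212.2 CPM in Sitagliptin and 210.3 CPM in Control monocytes, a ratio of 1.01 (0.899 to 1.13), and Fcgr3 had 463.1 and 474.7 CPM (0.976, 0.903 to 1.05). The side of 1 on which these ratios fell turned under stricter calls for both, under thinning and a mean over cells for Fcgr1 and under another scaling for Fcgr3, with ranges of 0.963 to 1.07 for Fcgr1 and 0.966 to 1.04 for Fcgr3. Fcgr4 had 64.5 CPM in Sitagliptin and 73.5 CPM in Control monocytes (0.878, 0.717 to 1.08). Fcgr2b stood at 591.6 CPM in Sitagliptin and 656.5 CPM in Control monocytes (0.901, 0.843 to 0.963).

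The adaptors were lower in Sitagliptin monocytes by a small factor. Fcer1g had 2031 CPM in Sitagliptin and 2256 CPM in Control monocytes (0.9004, 0.869 to 0.933), and Tyrobp had 2928 and 3194 CPM (0.917, 0.890 to 0.945). Fcrls was nearly silent, with 14 UMIs in Sitagliptin and 2 UMIs in Control monocytes (ratio 3.92, 0.899 to 35.5). Of the 6 genes with at least 20 UMIs, 0 were 25% higher and 0 were 20% lower, against 10.6% and 23.8% of 9063 measured genes. Their median log2 ratio was -0.14, beside -0.10 for all measured genes. Monocytes carried a median of 3736 UMIs in the Sitagliptin library and 2967 in the Control library.

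Levels also differed among macrophages, which were grouped by the program of marker genes that led in each cell. Fcgr1 was highest in the interferon group, at 307.0 CPM in Sitagliptin and 361.7 CPM in Control cells, followed by the Cxcl9/Vcam1 group at 229.1 and 258.6 CPM. Fcgr4 was highest in the Cxcl9/Vcam1 group, at 155.4 CPM in Sitagliptin and 192.6 CPM in Control cells. In Control cells the interferon group followed, at 155.8 CPM, whereas in Sitagliptin cells the MHC class II group came next at 116.6 CPM and the interferon group had 101.0 CPM. All 4 receptors were lowest in the small Retnla/Ear2/Lyz1 group of 73 Sitagliptin and 46 Control cells, for example Fcgr1 at 67.7 and 60.4 CPM.

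Fcgr2b was highest in the resident-like group, led by genes such as Folr2 and Lyve1, at 1113 CPM in Sitagliptin and 1187 CPM in Control cells. It was low in the interferon group, at 604.4 CPM in Sitagliptin and 728.3 CPM in Control cells, where Fcgr1 was high. Fcgr3 spanned 378.7 to 613.6 CPM over the groups in Sitagliptin cells and 316.0 to 700.0 CPM in Control cells. Fcer1g spanned 1318 to 2354 CPM in Sitagliptin and 1228 to 2785 CPM in Control cells.

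Fcrls had a pattern of its own, highest in the Retnla/Ear2/Lyz1 group, where the classical receptors were lowest. There it had 214.0 CPM in Sitagliptin and 216.6 CPM in Control cells (0.988, 0.726 to 1.36). Resident-like cells followed at 186.4 CPM in Sitagliptin and 111.7 CPM in Control (1.67, 1.43 to 1.95), and cycling cells at 111.8 and 60.4 CPM (1.85, 1.59 to 2.17). It was lowest in inflammatory cells, at 20.7 CPM in Sitagliptin and 9.96 CPM in Control, and in MHC class II cells, at 22.1 and 11.7 CPM. The ratio was furthest from 1 in the interferon group, at 45.2 CPM from 81 UMIs in Sitagliptin and 13.5 CPM from 14 UMIs in Control (3.36, 1.89 to 6.41).

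The diets were set side by side within each of the 9 program groups. Fcrls was higher in Sitagliptin cells in 8 of 9 groups, with the interval above 1 in 7. The lipid-associated group was at 1.17 (0.848 to 1.62). With the same mix of programs in both libraries, the Fcrls ratio over all macrophages was 1.69. Tyrobp was lower in Sitagliptin cells in 9 of 9 groups, with ratios of 0.752 to 0.904 and every interval below 1. Fcgr1, Fcgr2b, Fcgr3, Fcgr4 and Fcer1g were each lower in 8 of 9 groups, and the exception was the Retnla/Ear2/Lyz1 group for all of them.

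Within these groups at most 1 of the 7 genes was at least 25% higher in Sitagliptin cells, and that gene was Fcrls. It passed in the resident-like group (background 17.8%), the inflammatory group (13.4%), the MHC class II group (11.8%), the Cxcl9/Vcam1 group (14.5%), the interferon group (15.7%), the cycling group (12.4%) and the cells with no leading program (12.4%), but not in the lipid-associated group (13%) or the Retnla/Ear2/Lyz1 group (25.3%). At least 20% lower were 3 genes in the interferon group, against 25.4% of all measured genes. These were Fcgr4 (0.648, 0.521 to 0.806), Fcgr3 (0.732, 0.656 to 0.817) and, at the edge, Tyrobp (0.799, 0.759 to 0.842). So were 2 genes in each of the resident-like group (17.6%), the cycling group (16.9%) and the cells with no leading program (20.1%), and 0 in the lipid-associated (21.7%), inflammatory (20.8%), MHC class II (16.3%), Cxcl9/Vcam1 (18.7%) and Retnla/Ear2/Lyz1 (24.4%) groups. Fcgr4 was among the pair in all of those groups, with Tyrobp in resident-like cells and Fcgr1 in the others.

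**Figure D3:**
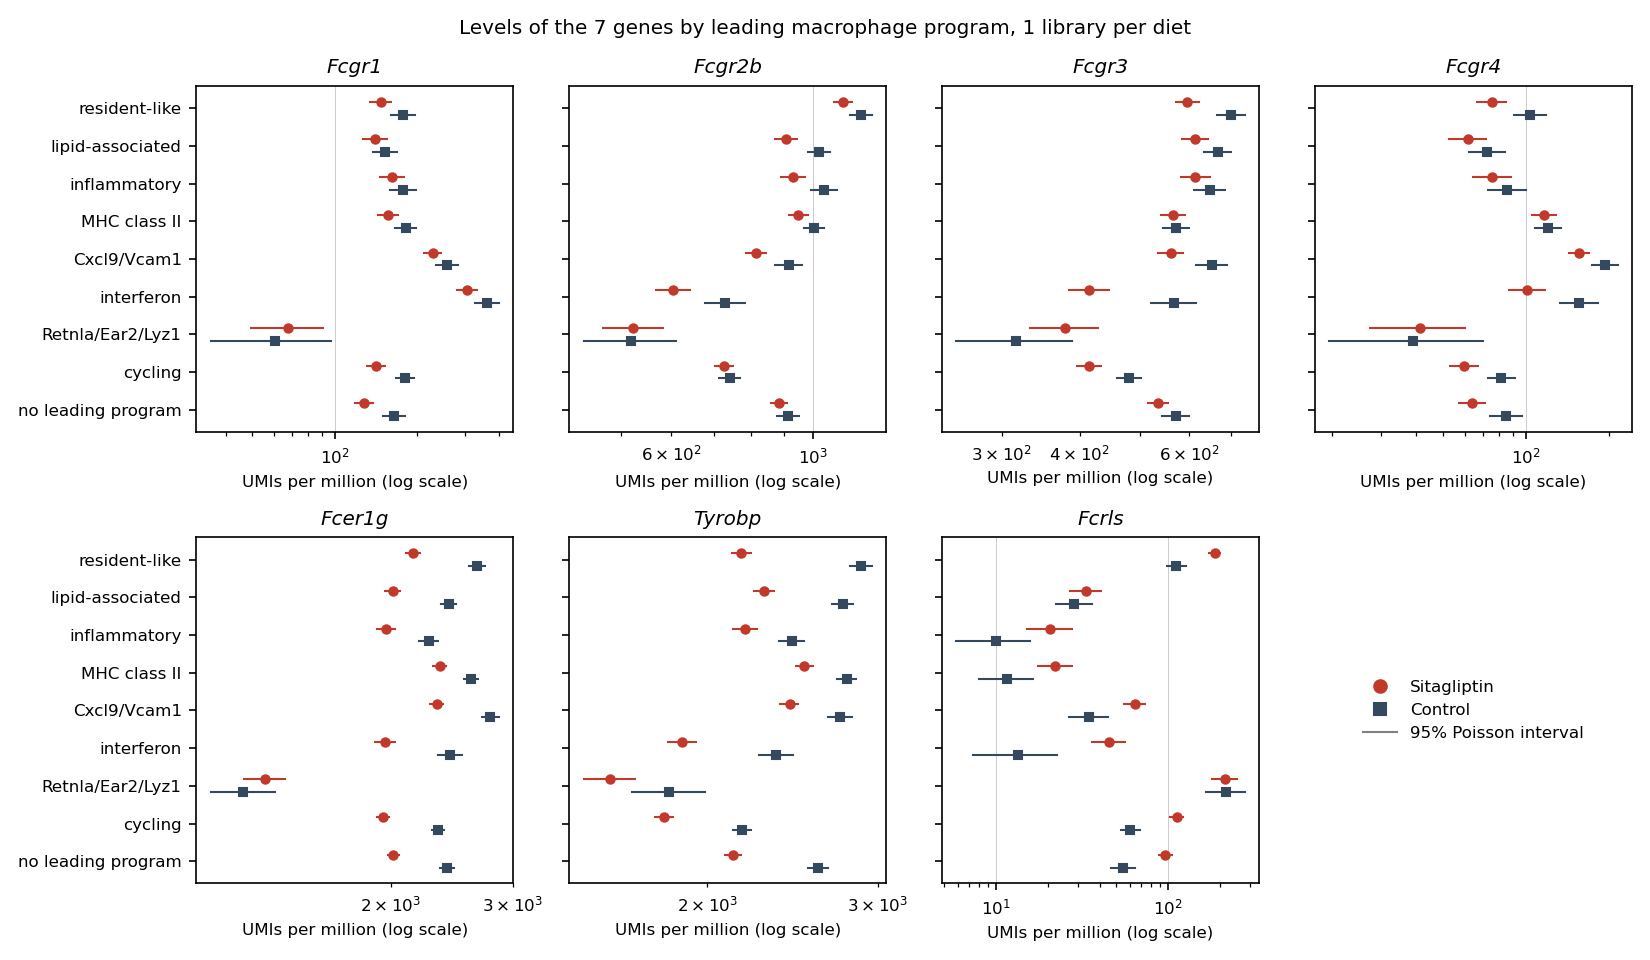
Levels of the 7 genes in CPM (log axes that differ between panels) for the 9 macrophage groups, with Sitagliptin above Control and 95% Poisson intervals. Fcgr1 peaks in interferon cells, Fcgr4 in Cxcl9/Vcam1 cells and Fcgr2b in resident-like cells, while Fcrls lies higher in Sitagliptin in 8 of 9 groups.

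The balance between activating and inhibitory receptors was read as Fcgr1, Fcgr3 and Fcgr4 UMIs per Fcgr2b UMI, a quantity that needs no scaling to the library. It was 0.902 in Sitagliptin and 0.949 in Control macrophages, an odds ratio of 0.9503 (0.924 to 0.977). With each barcode thinned to 2000 UMIs the odds ratio was 0.991. In monocytes the balance was 1.251 in Sitagliptin and 1.155 in Control, an odds ratio of 1.08 (0.989 to 1.19). The interferon group had the highest balance among macrophages, 1.36 in Sitagliptin and 1.49 in Control cells. The lowest in Sitagliptin cells was that of the resident-like group, 0.736, beside 0.828 in Control cells.

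Across the 9 macrophage groups the odds ratio lay below 1 in 5 and above 1 in 4. Its interval lay below 1 in cycling cells (0.845, 0.786 to 0.908), resident-like cells (0.888, 0.823 to 0.959) and cells with no leading program (0.913, 0.849 to 0.981), and above 1 in 0 groups. In cycling cells Fcgr2b stood at 725.8 CPM in Sitagliptin and 740.1 CPM in Control, while Fcgr1 stood at 141.9 and 181.7 CPM and Fcgr4 at 59.9 and 81.5 CPM. After thinning, 56.2% of Sitagliptin and 61.4% of Control macrophages held UMIs of both an activating receptor and Fcgr2b. Those with an activating receptor alone were 17.4% in Sitagliptin and 15.8% in Control, and with Fcgr2b alone 17.3% and 15.8%.

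**Figure D4:**
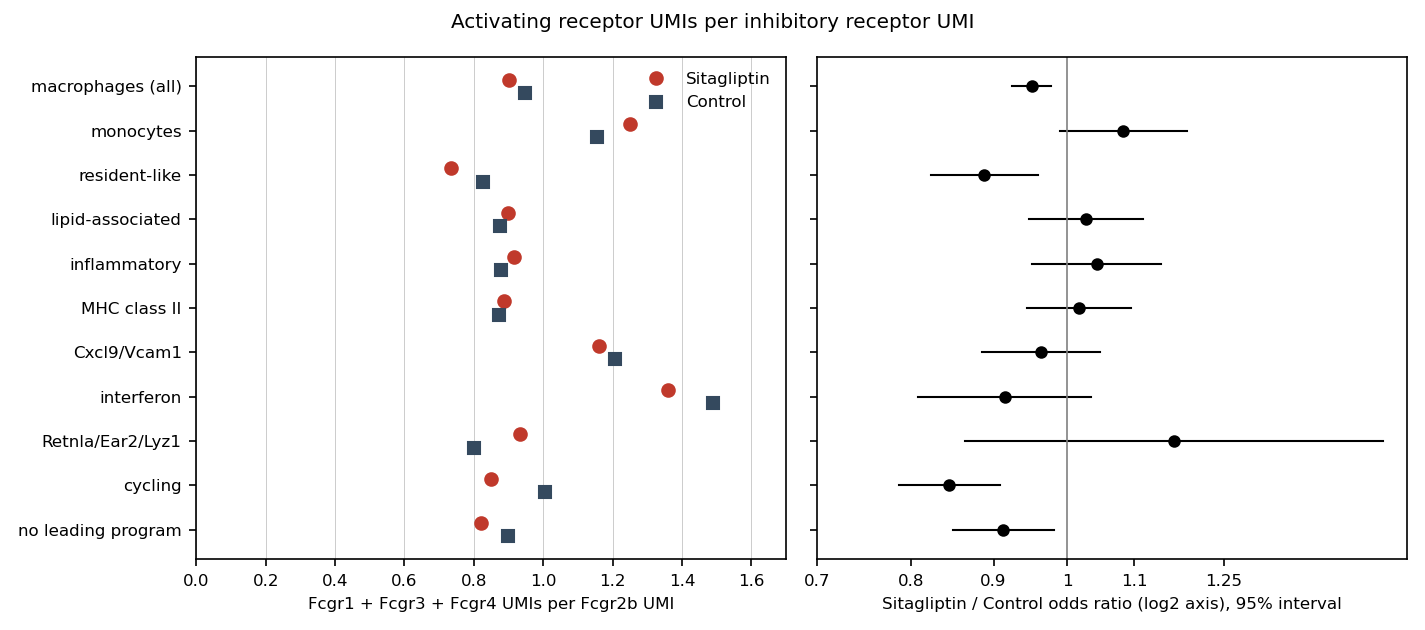
Left, Fcgr1, Fcgr3 and Fcgr4 UMIs per Fcgr2b UMI in Sitagliptin (circles) and Control (squares) for all macrophages, monocytes and the 9 macrophage groups; right, the Sitagliptin over Control odds ratio on a log2 axis with exact 95% intervals. Interferon cells have the highest values, and cycling and resident-like cells have the lowest odds ratios.

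Neutrophils carried all 4 receptors, but from 19 Sitagliptin and 27 Control cells. Fcgr3 had 511.9 CPM from 39 UMIs in Sitagliptin and 276.6 CPM from 31 UMIs in Control neutrophils (1.85, 1.13 to 3.07). Fcgr2b had 577.6 CPM in Sitagliptin and 722.8 CPM in Control (0.799, 0.541 to 1.17), and Fcgr4 had 4 UMIs and 10 UMIs. Fcer1g stood at 1706 CPM in Sitagliptin and 1794 CPM in Control neutrophils (0.951, 0.757 to 1.19). Of 5 genes with at least 20 UMIs, 1 was 25% higher and 2 were 20% lower, beside 24.0% and 33.3% of measured genes. Macrophage markers summed to 1063 CPM in Sitagliptin and 910.2 CPM in Control neutrophils, with 0 and 1 of 10 at 0, and monocyte markers to 1352 and 2133 CPM with none at 0. Their part in these levels was not tested.

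Among dendritic cells, cDC2 carried Fcgr2b at 379.5 CPM in Sitagliptin and 519.9 CPM in Control (0.730, 0.535 to 1.003). Fcgr3 was at 179.4 CPM in Sitagliptin and 160.6 CPM in Control cDC2. Tyrobp was at 1939 CPM in Sitagliptin and 2363 CPM in Control cDC2 (0.821, 0.713 to 0.946). Of 5 genes measured in cDC2, 0 were 25% higher and 1 was 20% lower, against 25.5% and 29.0% of measured genes. Fcrls had 15 UMIs in Sitagliptin and 0 UMIs in Control cDC2.

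Other dendritic cells had fewer receptor UMIs. In cDC1, which excel at presenting antigen to CD8 T cells, Fcgr2b had 19 UMIs in Sitagliptin and 10 UMIs in Control, and the 3 activating receptors together 10 UMIs and 0 UMIs. Plasmacytoid dendritic cells had 5 Fcgr2b UMIs in each library, but Tyrobp at 3521 CPM in Sitagliptin and 4469 CPM in Control (0.788, 0.626 to 0.997). The leucocyte gene Ptprc in these 19 Sitagliptin and 8 Control cells was at 1760 and 2442 CPM (0.721, 0.525 to 1.0005). Tyrobp UMIs per Fcer1g UMI were 3.22 in Sitagliptin and 3.27 in Control plasmacytoid dendritic cells, against 1.04 in macrophages of both libraries. In cDC1 they were similarly high, at 3.54 in Sitagliptin and 2.78 in Control. These values rest on 77 Sitagliptin and 33 Control Fcer1g UMIs in plasmacytoid dendritic cells, and on 48 and 18 in cDC1.

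Mature migratory dendritic cells, marked by Ccr7 and Fscn1, had Fcgr2b at 348.8 CPM in Sitagliptin and 224.0 CPM in Control (1.56, 1.16 to 2.11). Fcer1g was at 938.9 CPM in Sitagliptin and 625.0 CPM in Control (1.502, 1.26 to 1.80). Of 5 measured genes, 4 were 25% higher and 0 were 20% lower, beside 25.1% and 29.0% of measured genes. Of these 4, the intervals of Fcgr1 (2.05, 0.877 to 5.57) and Fcgr3 (1.32, 0.843 to 2.12) included 1. Tyrobp, the gene with the most UMIs, was at 1.01 (0.894 to 1.15). The macrophage gene C1qa was higher, at 72.4 CPM in Sitagliptin and 21.7 CPM in Control. Without barcodes that held a C1q UMI, the ratio of Fcer1g was 1.01 (0.781 to 1.32) and that of Fcgr2b 1.26 (0.805 to 1.99), from 58 Sitagliptin and 57 Control cells. That selection left 55 of 188 Fcgr2b UMIs in Sitagliptin and 34 of 62 in Control, so its intervals are wider. All cells of the class had median depths of 5148.5 UMIs in Sitagliptin and 3404 in Control. The part of macrophage RNA and of depth in these ratios was not tested.

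NK cells carried the adaptors and few receptor UMIs. Fcer1g had 1238 CPM in Sitagliptin and 1425 CPM in Control NK cells (0.869, 0.782 to 0.966), and Tyrobp 1699 and 1788 CPM, with an interval of 0.866 to 1.04. Fcgr3, which encodes the CD16 receptor of mouse NK cells, had 29 UMIs or 41.4 CPM in Sitagliptin and 17 UMIs or 40.4 CPM in Control NK cells. After thinning, 5.84% of Sitagliptin and 6.06% of Control NK cells held a Fcgr3 UMI, close to 4.75% and 5.80% in T cells, and without thinning 14.3% and 14.1% of NK cells did, at median depths of 3521.5 and 3572 UMIs in NK cells and 3309 and 3526.5 UMIs in T cells. The share in tumour-marker barcodes was 1.96% in Sitagliptin and 2.25% in Control, at median depths of 21227.5 and 15864 UMIs. At this depth Fcgr3 in NK cells could not be set apart from the level in T cells.

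Fcgr4 had 0 UMIs in NK cells of both libraries, which allows up to 4.28 CPM in Sitagliptin and 7.12 CPM in Control. Fcgr2b had 16 UMIs in Sitagliptin and 9 UMIs in Control NK cells. With NK cells rich in MHC class II UMIs kept, in 158 Sitagliptin and 104 Control cells, Fcgr2b was at 27.5 CPM in Sitagliptin and 97.4 CPM in Control (0.282, 0.158 to 0.486), and the ratio of Fcgr3 was 0.649 (0.394 to 1.07). With those cells left out, as in the calls above, 0 of 4 measured genes were 25% higher and 0 were 20% lower. These shares over all measured genes were 22.2% and 24.5%. In the same calls NK cells held 54.2 Fcer1g UMIs per Fcgr2b UMI in Sitagliptin and 66.7 in Control, against 2.41 and 2.64 in macrophages. These values rest on 16 and 9 Fcgr2b UMIs. With the cells rich in MHC class II UMIs kept, Fcgr2b had 20 UMIs in Sitagliptin and 46 in Control. Fcer1g then had 897 and 699 UMIs.

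T cells held Fcer1g at 249.8 CPM in Sitagliptin and 525.5 CPM in Control, a ratio of 0.475 (0.418 to 0.541). Tyrobp had 303.4 CPM in Sitagliptin and 430.6 CPM in Control T cells (0.705, 0.619 to 0.802). Fcgr2b had 42.2 CPM in Sitagliptin and 63.9 CPM in Control (0.660, 0.466 to 0.937), and Fcgr3 34.8 and 47.95 CPM (0.725, 0.489 to 1.08). Of 5 measured genes, 0 were 25% higher and 5 were 20% lower, beside 16.2% and 27.1% of measured genes.

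Free RNA or attached myeloid material can give such UMIs, and some related values are given here as a description. A Fcer1g UMI was found after thinning in 20.2% of Sitagliptin T cells (16.4 to 24.5) and 33.9% of Control T cells (27.8 to 40.5), and without thinning in 28.5% and 41.1%, against 5.60% and 8.23% of tumour-marker barcodes. Fcer1g itself had 33.7 CPM in Sitagliptin and 54.9 CPM in Control tumour-marker barcodes (0.614, 0.552 to 0.683). T cells held 5.92 Fcer1g UMIs per Fcgr2b UMI in Sitagliptin and 8.22 in Control, beside 2.41 and 2.64 in macrophages. Tumour-marker barcodes held 2.03 in Sitagliptin and 3 in Control. C1qa stood at 14.3 CPM in Sitagliptin and 14.98 CPM in Control T cells, and the 10 macrophage markers, none at 0, summed to 180.2 and 156.8 CPM. The call itself kept these low, since barcodes with 10 or more macrophage marker UMIs per 10000 were left out of T and NK cells. So were barcodes with 40 or more MHC class II UMIs per 10000. Barcodes called by tumour markers also had under 10 macrophage marker UMIs per 10000. Their median depths were 21227.5 UMIs in Sitagliptin and 15864 in Control, against 3309 and 3526.5 in T cells. Their shares are thus not a measure of free RNA in T cells. The part of free RNA in these levels was not tested.

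NK markers in T cells summed to 309.7 CPM in Sitagliptin and 396.6 CPM in Control. With T cells that held an NK marker UMI left out, 209 of 400 Sitagliptin and 105 of 224 Control T cells remained. Gzma and Eomes are in the NK list, so T cells with UMIs of these genes were left out too. In the remaining cells Fcer1g was at 144.1 CPM in Sitagliptin and 314.1 CPM in Control (0.459, 0.356 to 0.591). With T cells rich in MHC class II UMIs kept, it was at 434.4 CPM in Sitagliptin and 781.5 CPM in Control (0.556, 0.509 to 0.607). The direction of Fcer1g in T cells was thus lower in Sitagliptin in each of these selections.

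**Figure D5:**
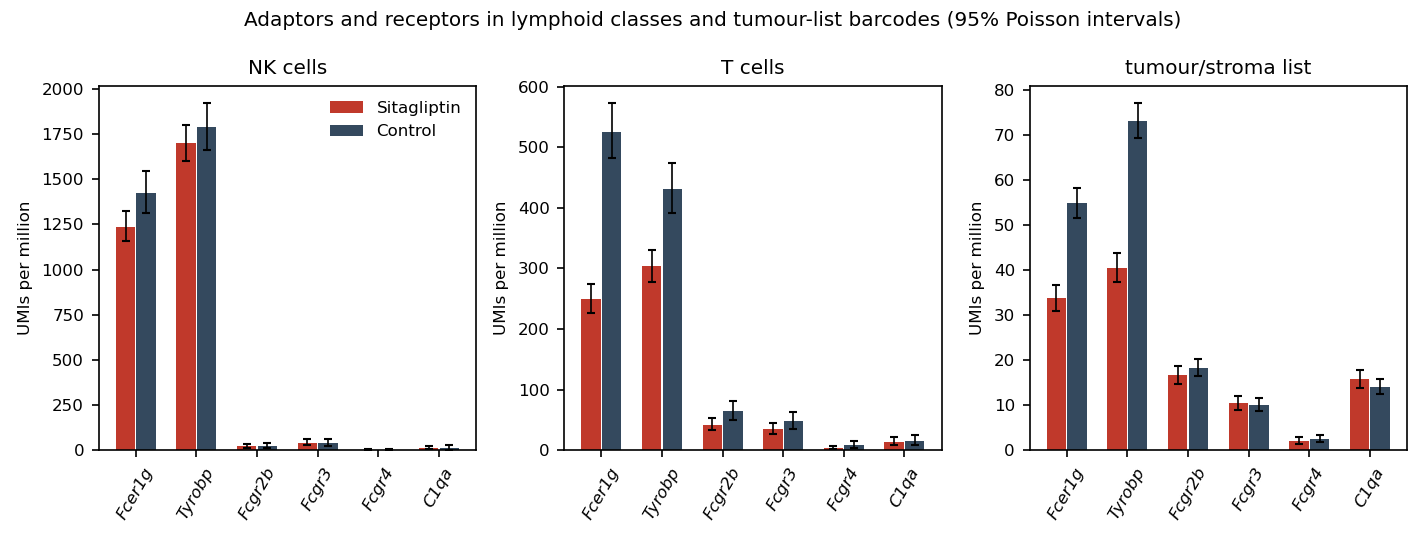
Levels in CPM (axes from 0, differing between panels) of both adaptors, 3 receptors and C1qa in NK cells, T cells and tumour-marker barcodes, Sitagliptin left of Control, with 95% Poisson intervals. Adaptors dominate in NK cells, and in T cells Fcer1g is at 249.8 in Sitagliptin and 525.5 in Control while C1qa is at 14.3 and 14.98.

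Genes whose levels followed each of the 7 most closely were read over 30 profiles, 15 classes or macrophage groups in each library, as a description. The profiles share library and depth, and the 7 genes were left out of each ranking and are given as pairs below. Outside the 7, Fcgr1 was most like Slc31a2 (Pearson r 0.959), Ms4a4a and Ms4a6d, and Fcgr2b was most like Pilra (0.983), Ctss and Cd14. Fcgr3 was most like the lysozyme gene Lyz2 (0.983), Itgam and Ctsc, and Fcgr4 was most like Hk3 (0.970), Lair1 and P2ry6 outside the 7. Both adaptors were most like Lrmda, at 0.980 for Fcer1g and 0.972 for Tyrobp. Fcrls was most like Hdac9 (0.924), Gas6 and Agmo, of which Gas6 was in the marker list of the resident-like group. Among the 7, Fcgr1 and Fcgr4 had r of 0.962, above Slc31a2 for Fcgr1 and above Lair1 for Fcgr4, Fcgr2b and Fcgr3 had 0.971, Fcer1g and Tyrobp 0.964, and Fcrls had at most 0.592 with any other.

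Transcripts of the IgG heavy chains, the ligands' genes, were few in macrophages, which says nothing of how much IgG protein was present. Ighg2c had 20 UMIs in Sitagliptin and 0 UMIs in Control macrophages, and Ighg1 had 11 and 0 UMIs. Of 6 listed heavy chain genes 2 were measured, and the IgM gene Ighm had 14.97 CPM in Sitagliptin and 7.90 CPM in Control macrophages. Called plasma cells numbered 6 in Sitagliptin and 1 in Control. Fcgrt, the neonatal Fc receptor gene that recycles IgG, had 48.9 CPM in Sitagliptin and 43.3 CPM in Control macrophages (1.13, 1.03 to 1.23). Of 12 other Fc receptor genes 4 were measured in macrophages, 3 higher and 1 lower, where 40.4% of all measured genes were higher. Of 7 other adaptors, mostly subunits of the T and B cell receptors, 4 were higher and 3 lower, beside the same share. The interval lay below 1 for 1 of them and above 1 for 0. Cd3d, Cd3e, Cd3g, Cd79a and Cd79b were also markers for calling T and B cells, so the call itself limited their macrophage levels. Hcst, which encodes DAP10, was at 38.5 CPM in Sitagliptin and 37.9 CPM in Control.

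Receptors that pair with the adaptors stood mostly lower in Sitagliptin macrophages, with 3 higher and 18 lower of 21 measured among 27 listed, where 40.4% of all measured genes were higher. Of the 21, 1 was 25% higher and 4 were 20% lower, against 9.82% and 12.6% of all measured genes. Their median log2 ratio was -0.21, beside -0.06 for all genes. Clec4n, encoding the fungal sensor Dectin-2 that uses Fcer1g, had 622.0 CPM in Sitagliptin and 791.1 CPM in Control macrophages (0.786, 0.769 to 0.804). In monocytes it had 491.6 CPM in Sitagliptin and 712.6 CPM in Control (0.690, 0.645 to 0.738). Pilrb2 was at 0.684 (0.593 to 0.790) in macrophages, and Cd300lb, a DAP12-coupled receptor, at 1.39 (1.21 to 1.59). In monocytes 5 were higher and 14 lower of 19 measured, where 38.0% of all measured genes were higher. Of the 19, 1 was 25% higher and 6 were 20% lower, against 10.6% and 23.8% of all measured genes. Clec4e, the Mincle gene, was at 618.3 CPM in Sitagliptin and 518.3 CPM in Control (1.19, 1.11 to 1.28).

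Downstream of the adaptors, of 34 kinases and scaffold genes of the ITAM pathway, 15 were higher and 19 lower in Sitagliptin macrophages, where 40.4% of all measured genes were higher, and their median log2 ratio was -0.03 beside -0.06 for all genes. The GTPase genes Rac1 (369.5 CPM in Sitagliptin, 467.2 CPM in Control, ratio 0.791) and Rac2 (0.778, 0.735 to 0.822) were lowest among those with at least 100 UMIs, and the scaffold genes Lat2 (1.19, 1.11 to 1.29) and Blnk (1.19, 1.12 to 1.27) highest. Of 23 measured inhibitory receptors and phosphatases, 7 were higher and 16 lower, with a median of -0.06, the same as over all genes. Among them Dok3, an adaptor that restrains ITAM signals, was at 0.729 (0.656 to 0.811), and Clec4a2, an inhibitory lectin receptor, at 1.18 (1.12 to 1.247). In monocytes 16 kinase and scaffold genes were higher and 16 lower, where 38.0% of all measured genes were higher, and Pirb, an inhibitory receptor, was at 230.1 CPM in Sitagliptin and 192.4 CPM in Control (1.20, 1.06 to 1.35).

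Reads of Fcgr2b and Fcgr3 can be confused, since their GENCODE M21 transcripts shared 136 of the 60-base windows, 8.36% of those of Fcgr3 and 3.63% of those of Fcgr2b. No other pair of the 7 genes shared such a window. The authors' treatment of shared reads was not given in the sources used here, so the levels of both carry that uncertainty.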

How the data were processed

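The authors deposited, for each of the 2 libraries, a matrix of raw UMI counts with genes in rows and barcodes in columns, made with a SeekOne DD 5′ kit per the labels' protocols. The aligner, the counting program and the genome build were not given in the sources used here. Every deposited barcode held 2001 UMIs or more, so thinning left out no barcode.

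Counts of rows that share a symbol were summed and read with scanpy 1.11.5, anndata 0.12.19, numpy 2.4.6, scipy 1.17.1 and pandas 2.3.3 under Python 3.11.15. Scrublet's automatic threshold marked 0 barcodes, so the top-scoring 6% were taken out (586 Sitagliptin, 522 Control). Leiden clustering (leidenalg 0.10.2, igraph 0.11.9, resolution 2.0) without the 7 genes served to set aside 2 clusters with a median under 2600 UMIs. Each remaining barcode was called from its marker UMIs per 10000 UMIs, for example at least 20 for macrophages, 15 for monocytes and 30 for neutrophils, and barcodes that met several classes were left out as mixed. Barcodes with T or NK markers and at least 10 macrophage marker or 40 MHC class II UMIs per 10000 were also left out, the second limit being chosen after values of the 7 genes were seen. Classes are ranges: 284 of 5760 macrophages lay under 1.25 times their minimum, and 240 uncalled barcodes reached 0.8 times it. A macrophage was put in the program with the highest level relative to all macrophages, if at least 1.5 times the mean and 5 UMIs.

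UMIs were summed per class and library and given per 1000000 (CPM) with exact Poisson 95% intervals. Ratios have exact conditional binomial intervals, shares exact Clopper-Pearson intervals after thinning to 2000 UMIs, and the limit that a count of 0 allows was set at 3 counts. All intervals cover counting error only. With 1 library per diet no p-value was computed. The interval code was tested on simulated data. All 7 genes were computed in every class. Outside macrophages and monocytes the text gives values for only some of them. Of each pathway list, genes were named among the 3 highest and 3 lowest ratios with at least 100 UMIs. IgG genes with fewer UMIs were named after their values were seen. Likeness is the Pearson correlation of log2(CPM + 10). The genes, lists and markers were chosen with earlier results of these data known. Alternatives to calls, doublets, scaling, weighting and depth were recomputed.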

Additional observations from a re-analysis of the deposited data

Results flagged for a closer look

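In mature migratory dendritic cells the Sitagliptin over Control ratio was above 1 where macrophages, monocytes and T cells had ratios below 1, with counting intervals on opposite sides of 1. This held for Fcgr2b, at 1.56 (1.16 to 2.11), and for Fcer1g, at 1.502 (1.26 to 1.80). For Fcer1g, NK cells also lay below 1. Without barcodes that held a C1q UMI, which left fewer UMIs, both intervals included 1, at 1.26 for Fcgr2b and 1.01 for Fcer1g. In neutrophils Fcgr3 had a ratio of 1.85 (1.13 to 3.07), where macrophages lay at 0.901. It rests on 39 UMIs in 19 Sitagliptin cells and 31 UMIs in 27 Control cells. Whether these ratios differ between classes beyond the spread between mice was not tested.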

How the results depend on the processing

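No paired analysis was possible because each diet has 1 library, and no result comes from a test. Over 10 alternatives in macrophages all 7 genes kept the direction of their ratio, and over 9 alternatives in monocytes so did Fcgr2b, Fcgr4, Fcer1g and Tyrobp, while Fcgr1 kept it in 6 and Fcgr3 in 7. Thinning to 2000 UMIs moved the median log2 ratio of the 7 genes in macrophages to -0.16 and the activating to inhibitory odds ratio to 0.991. Scaling by the median of ratios moved the median in monocytes to -0.047. The share of genes at least 25% higher in macrophages was 5.05% among genes with at least 100 UMIs and 16.2% among genes with at least 1 UMI in each library, and of those lower 20.1% in the second set. With at least 100 UMIs the shares in monocytes were 6.55% higher and 14.9% lower. The cause of these shifts was not tested, except that other sets of genes enter the shares. Few cells (8 to 27 per library) limit the values of neutrophils, cDC1 and plasmacytoid dendritic cells, and Fcgr3 in NK cells could not be set apart from T cells. Including low-UMI clusters, the limit on C1q UMIs and the selections of T cells were chosen after seeing the data.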
